A study of Mus musculus with 2 samples.

Results

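T-box transcription factors of the ureteric mesenchyme were followed in explanted mouse ureters in which WNT secretion was blocked. The 7 genes *Tbx18*, *Tbx2*, *Tbx3*, *Tbx4*, *Tbx5*, *Tbx15* and *Tbx20* were selected by name, and every array probe that carries one of these names was used. They had 9 probes among the 39429 probes of the array, and 7 of its 29924 gene names. Both groups were wildtype ureters of NMRI embryos, an outbred mouse strain, taken at E11.5 and kept for 18 h on a membrane in serum-free medium. The treated group received 10 µM IWP-2, an inhibitor of the acyltransferase PORCN that WNT proteins need for their release, and the control group received the solvent DMSO. The sex of the embryos was not determined. There were 2 two-colour arrays, and each compared its own pool of treated ureters with its own pool of control ureters. On replicate 1 the treated RNA carried AlexaFluor647 and on replicate 2 it carried AlexaFluor555. Each pool combined many explants, so the spread between embryos was not measured, and IWP-2 reached every cell type of the explant.

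T-box proteins are transcription factors that bind DNA through a conserved domain, the T-box, and act as activators or repressors. In the ureter, *Tbx18* marks the undifferentiated mesenchyme around the epithelial tube and is needed to separate it from the neighbouring kidney mesenchyme and for later smooth muscle formation. *Tbx2* and *Tbx3* encode closely related repressors that are expressed in the same mesenchyme and are known to depend on canonical WNT signaling there. For *Tbx18* the study likewise reports lost expression in the ureteric mesenchyme of mutants without mesenchymal *Ctnnb1*, the β-Catenin gene of this pathway. *Tbx4* and *Tbx5* are best known for the outgrowth of hindlimb and forelimb, *Tbx15* for skin and skeletal mesenchyme and *Tbx20* for the heart. The question was which of these genes differ in level when WNT proteins are not secreted.

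Each member was read by probes of 60 bases, positioned by the files on mouse build mm9. The first 30 bases of the 5 probes on which the results turn are shown 5′ to 3′ to identify what was measured:
Tbx18: gtgcagaagctggttaaatcttagtatatt
Tbx5: aaatacctacctccgtcatgtgagatgtct
Tbx4: gacaggcggtatgaaacttcaagtgttttt
Tbx3: ctttatggtgttttggattggtgtactgag
Tbx2: tttttgctccagagggagaacgaagcgaga

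The *Tbx18* probe lies at chr9:87599514-87599573 on the minus strand. The *Tbx5* probe lies at chr5:120334087-120334146 and the *Tbx3* probe at chr5:120134511-120134570, both on the plus strand. The *Tbx4* probe lies at chr11:85729510-85729569 and the *Tbx2* probe at chr11:85655391-85655450, also on the plus strand. Whether a probe falls in a coding or an untranslated exon was not analysed here. The probes did not resemble each other, as the longest run of bases shared by full probes of different members was 7 bases over 33 probe pairs. *Tbx15* had 1 probe and *Tbx20* had 3 probes, which lie apart on the minus strand of chromosome 9 at 24527750, 24544715 and 24563177.

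RefSeq (GRCm38.p6) gave the sequence before the transcription start for *Tbx18*, *Tbx4* and *Tbx20*. The 250 bases of *Tbx18* (chr9:87731261-87731510, minus strand) and of *Tbx4* (chr11:85896515-85896764, plus strand) are shown because both genes, unlike *Tbx20*, had lower transcript levels in the treated group:
Tbx18: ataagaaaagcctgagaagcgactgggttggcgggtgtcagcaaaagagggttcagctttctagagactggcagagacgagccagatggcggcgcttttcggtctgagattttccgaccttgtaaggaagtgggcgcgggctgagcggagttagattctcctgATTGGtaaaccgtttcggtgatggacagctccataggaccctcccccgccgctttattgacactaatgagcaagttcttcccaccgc
Tbx4: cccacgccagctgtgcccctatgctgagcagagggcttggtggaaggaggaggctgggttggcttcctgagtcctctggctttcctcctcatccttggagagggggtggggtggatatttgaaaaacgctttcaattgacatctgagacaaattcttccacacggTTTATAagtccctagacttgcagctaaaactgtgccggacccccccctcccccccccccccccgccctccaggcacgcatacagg

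Capitals mark the motifs found by a search of both strands. *Tbx18* held 1 CCAAT box (CCAAT), on the opposite strand and 87 bases before the start, and *Tbx4* held 1 TATA box (TATAAA), on the opposite strand and 85 bases before the start. Among 32851 windows of this length, 33.8% held CCAAT and 12.4% held TATAAA. The TCF/LEF motif of canonical WNT signaling (CTTTG followed by AA, AT, TA or TT), present in 14.8% of windows, and the core of the T-box element (GGTGTGA), present in 3.3%, were not found in these letters in the windows of *Tbx18*, *Tbx4* or *Tbx20*. Enhancers and other starts were not examined.

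On the arrays, the share of spots above background was 68.6% to 70.7% per channel, no spot was saturated, and 20119 genes could be tested. Their median change was close to 0, and the median standard deviation (SD) between the arrays was 0.11 on the log2 scale. In the WNT response list, 7 of 12 genes were called lower and none higher, against 1.15% and 0.611% of all genes. They were the receptor gene *Fzd10* (-2.29), the feedback inhibitors *Nkd1* (-1.31), *Apcdd1* (-1.27) and *Wif1* (-0.84), and the transcription factor genes *Sp5* (-1.12), *Tcf7* (-0.89) and *Lef1* (-0.89). Not called were *Axin2* (-1.01, adjusted p = 0.0502 in limma), *Lgr5* (-0.41), *Znrf3* (-0.25), *Notum* (-0.10) and *Rnf43* (0.005). The study names several of the listed genes, such as *Fzd10*, *Lef1* and *Nkd1*, so the list is not an independent check of the treatment. All 12 epithelial and all 10 mesenchymal markers were above background, which are genes of the tissues that make up a ureter. Changes are given throughout on the log2 scale, treated relative to control. A gene was called when its p-value in limma lay under 0.05 after Benjamini-Hochberg adjustment over the 20119 genes (false discovery rate, FDR, 0.05).

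Of the 6 T-box genes that could be tested, 3 fell upon IWP-2 treatment, namely *Tbx18*, *Tbx5* and *Tbx4*. At this threshold 1.15% of all genes tested were lower and 0.611% were higher, 1.76% in all. The level of *Tbx3* was lower by a smaller amount that missed the threshold, that of *Tbx2* was lower by less, and that of *Tbx20* lay near 0. *Tbx15* was not well above background. On both arrays 5 of the 6 genes had a ratio below 0, against 27.5% of all genes, and 0 had a ratio above 0 on both. Centring on the median in place of loess turned the ratio of *Tbx2* on replicate 1 to 0.09, so that it lay above 0 there. The median change of the 6 genes was -0.58. In these bulk samples, fewer cells of a type and less RNA per cell cannot be told apart.

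*Tbx18*, the gene most closely tied to the ureteric mesenchyme, had a processed intensity of 1592 in the control and 688 in the treated channel on replicate 1. On replicate 2 the intensity was 1363 in the control and 725 in the treated channel. Both treated values thus lay below both control values, although the treated pool carried the other dye on each array. The processed intensities were 2.31-fold lower on replicate 1 and 1.88-fold lower on replicate 2. After loess normalization the log2 ratios of *Tbx18* were -1.18 and -0.88. The mean was -1.03 ± 0.21 (SD, n = 2; 95% interval -1.31 to -0.76; adjusted p = 0.0126 in limma). The 4 spots of the probe ran from -1.23 to -1.15 on replicate 1 and from -0.91 to -0.86 on replicate 2, so the arrays differed by more than the spots within an array. Of all genes tested, 78 had a lower mean change than *Tbx18*. The call held in 10 of 13 alternative analyses, and the value lay between -1.07 and -1.03 in all of them. Several of these analyses changed only the prior, the model or the probe filter and left the ratios as they were. It was lost with centring on the median in place of loess (adjusted p = 0.0924 in limma), when the channels were modelled separately with a term for the dye (adjusted p = 0.197 in limma) and with the deposited series table (adjusted p = 0.233 in limma).

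**Figure D1:**
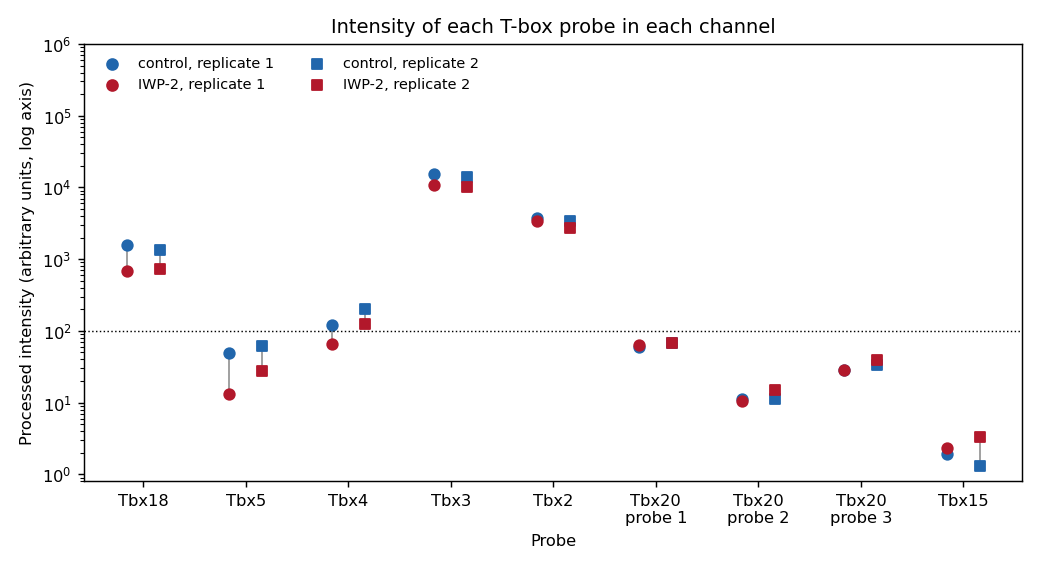
Processed intensity (arbitrary units, log axis) of the 9 probes of the 7 T-box genes in each channel. Circles are replicate 1 and squares replicate 2, blue is control and red is IWP-2, a grey line joins the channels of an array, and the dotted line marks an intensity of 100. The red symbols of *Tbx18*, *Tbx5* and *Tbx4* lie below the blue ones on both arrays; heights of different probes are not comparable with each other.

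*Tbx5*, a regulator of forelimb and heart development, was measured near the lower end of the intensity range. Its probe had 48.6 in the control and 13.3 in the treated channel on replicate 1, and 62.1 in the control and 27.8 in the treated channel on replicate 2. All 4 spots were nevertheless well above background in every channel, and the treated values lay below the control values on both arrays. The log2 ratios of *Tbx5* were -1.15 and -0.86, with a mean of -1.005 ± 0.21 (SD, n = 2; 95% interval -1.28 to -0.73; adjusted p = 0.0135 in limma). With the processed intensities the change of *Tbx5* was larger, at -1.52, and was still called (adjusted p = 0.0425 in limma), and without background correction it was -1.11; the cause of this difference was not tested. The call held in 8 of 13 alternative analyses. It was lost without a filter on dim probes (adjusted p = 0.0505 in limma), with centring on the median, in both separate-channel models and with the deposited series table (adjusted p between 0.117 and 0.378 in limma).

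*Tbx4*, a regulator of hindlimb outgrowth that is also expressed in the genital tubercle, had an intensity of 121 in the control and 64.7 in the treated channel on replicate 1. On replicate 2 the values were 201 and 126. The treated channel was the lower one on both arrays, but the treated value of replicate 2 lay above the control value of replicate 1, so the groups overlapped in intensity. The log2 ratios of *Tbx4* were -0.79 and -0.59, with a mean of -0.69 ± 0.14 (SD, n = 2; 95% interval -0.94 to -0.44; adjusted p = 0.0347 in limma). This call was the least stable, as it held in 6 of 13 alternative analyses. It was missed narrowly with processed intensities (adjusted p = 0.0575 in limma) and without background correction (adjusted p = 0.0526 in limma), and the adjusted p was 0.518 in the separate-channel model with a dye term.

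*Tbx3* and *Tbx2*, the repressor pair of the ureteric mesenchyme, had bright probes in all channels. The intensity of *Tbx3* was 15572 in the control and 10787 in the treated channel on replicate 1, and 13864 and 10288 on replicate 2. Both treated values lay below both control values. The log2 ratios of *Tbx3* were -0.55 and -0.39, with a mean of -0.47 ± 0.11 (SD, n = 2; 95% interval -0.72 to -0.23). The adjusted p was 0.0910 in limma, and *Tbx3* was called in none of the 13 alternative analyses. Centring on the median set its ratios to -0.06 and -0.92. At an unadjusted p under 0.05 in limma *Tbx3* joined the other 3 genes, so that 4 of 6 members were lower, against 4.74% of all genes in this direction and 8.67% in the other. A fall of the size found for *Tbx18* lay outside the interval of *Tbx3*.

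For *Tbx2* the intensity was 3776 in the control and 3441 in the treated channel on replicate 1, and 3354 and 2733 on replicate 2. The treated value of replicate 1 thus lay above the control value of replicate 2. The log2 ratios of *Tbx2* were -0.11 and -0.30, and the mean was -0.20 ± 0.13 (SD, n = 2; 95% interval -0.45 to 0.04; adjusted p = 0.503 in limma). The interval includes 0 and leaves room for a decrease of up to 0.45. On both arrays the ratio of *Tbx3* lay below that of *Tbx2*; a difference between the paralogs was not tested.

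**Figure D2:**
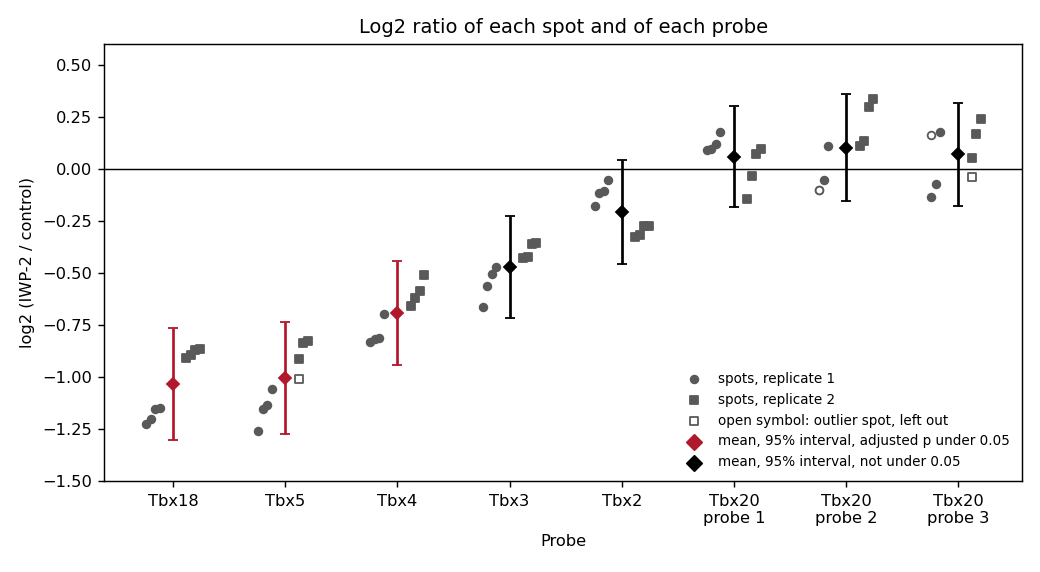
Log2 ratio of IWP-2 over control for each spot (grey circles, replicate 1; grey squares, replicate 2; open symbols, outlier spots left out) of the 8 T-box probes above background. Diamonds and bars are the probe mean over both arrays with its 95% interval from the fit across all probes, red where the adjusted p is under 0.05; the 3 red diamonds are *Tbx18*, *Tbx5* and *Tbx4*, and the spots of *Tbx20* lie on both sides of 0.

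*Tbx20*, known for its role in heart muscle, was measured by 3 probes, all dim. The brightest probe, which stood for the gene in the test, had 58.9 in the control and 64.5 in the treated channel on replicate 1, and 68.0 and 67.6 on replicate 2. The channels differed little and in opposite directions on the arrays. The log2 ratios of *Tbx20* were 0.12 and -0.0020, with a mean of 0.06 ± 0.09 (SD, n = 2; adjusted p = 0.936 in limma). The other two probes had mean changes of 0.10 and 0.07 and intensities between 10.6 and 38.9, so the 3 probes did not disagree by more than their spread. *Tbx15*, a factor of skin and skeletal mesenchyme, had 0 of 4 spots well above background in each of the 4 channels (chr3:99157901-99157960, mm9, plus strand), with intensities between 1.30 and 3.36, and was not tested.

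In a fit across the 26947 probes above background in place of genes, the probes of *Tbx18*, *Tbx5* and *Tbx4* were called. Each of these genes had 1 probe, so its ratios were those of the fit across genes. Only the prior and the adjustment differed, so this is not separate support. The adjusted p in limma was 0.00679 for the probe of *Tbx18*, 0.00749 for that of *Tbx5* and 0.0241 for that of *Tbx4*, where 1.23% of all probes were lower and 0.824% higher. A filter modelled on the study's cut-offs, which asked for a change of at least 2-fold in the same direction with the brighter channel of each array reaching an intensity of 100, and involves no test, passed 0 of the 7 genes. It passed 0.344% of the bright genes as lower and 0.0756% as higher. The intensity was reached in the brighter channel by *Tbx18*, *Tbx2*, *Tbx3* and *Tbx4*, of which *Tbx4* had 64.7 in the treated channel of replicate 1. *Tbx18* missed the fold on replicate 2 alone, and *Tbx5* had the fold on both arrays, at 3.67 and 2.23, but not the intensity. With a fold of at least 1.5, *Tbx18* and *Tbx4* passed.

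**Figure D3:**
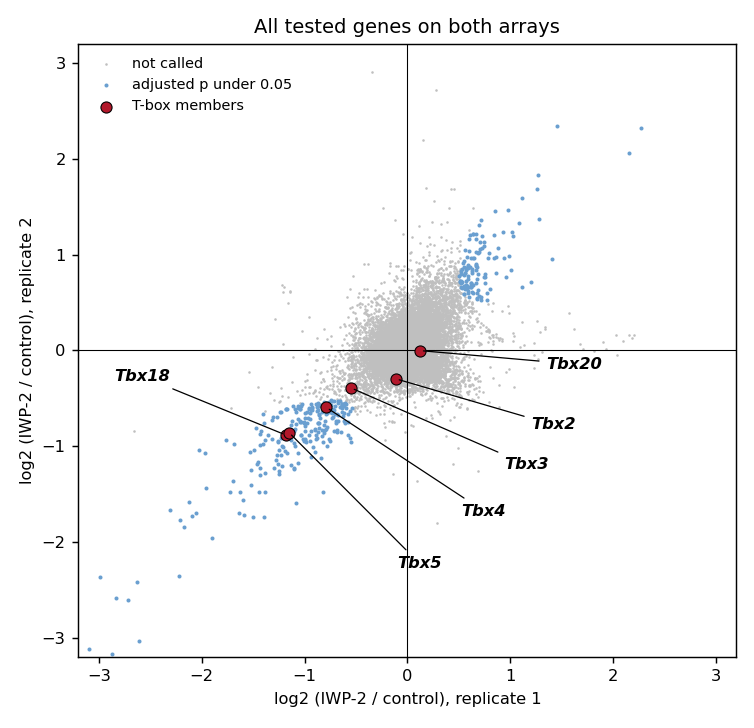
Log2 ratio of IWP-2 over control on replicate 1 (x axis) and replicate 2 (y axis) of the genes tested, with called genes in blue and the 6 tested T-box genes in red; 2 genes lie outside the axes. *Tbx18* and *Tbx5* lie nearly on one point in the lower left, *Tbx4* and *Tbx3* nearer to the centre, and *Tbx2* and *Tbx20* within the mass of genes.

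Some of the members lie in pairs in the genome, as *Tbx2* is next to *Tbx4* on chromosome 11 and *Tbx3* is next to *Tbx5* on chromosome 5. *Tbx18*, *Tbx15* and *Tbx20* had no other member among their nearest tested genes. In each pair 1 gene was called, with *Tbx4* at -0.69 beside *Tbx2* at -0.20 and *Tbx5* at -1.005 beside *Tbx3* at -0.47. Around all 7 members, the nearest tested genes on each side in RefSeq order gave 20 further genes. None of them was called in limma at an adjusted p under 0.05, against 1.76% of all genes in either direction. At an unadjusted p under 0.05 in limma it was *Tbx3os1* alone, against 4.74% of all genes lower and 8.67% higher. Among 20 genes, 0 called is close to the share over all genes. *Tbx3os1*, a noncoding RNA whose RefSeq interval overlaps that of *Tbx3*, had ratios of -0.53 and -0.40 (mean -0.46 ± 0.09, SD, n = 2; adjusted p = 0.0917 in limma), values close to those of *Tbx3*. The other 19 had mean changes between -0.19 for *AW549542* and 0.23 for *Gdap2*. Beside *Tbx18*, *Cep162* had -0.09 and *Nt5e* -0.15.

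The rest of the T-box family was described for comparison. Of its 10 genes on the array 8 were tested, and their median change was 0.10. In limma 0 were called in either direction, which is close to the share of 1.76% over all genes. At an unadjusted p under 0.05, *Tbx1* and *Eomes* had p-values of 0.00824 and 0.0317 in limma, both with positive means. *Tbx1*, a factor of the pharyngeal region, had intensities of 285 in the control and 393 in the treated channel on replicate 1, and 228 and 284 on replicate 2, and a mean change of 0.38 (adjusted p = 0.154 in limma). *Tbr1*, a factor of cortical neurons, had the largest mean, 0.63, which came from replicate 2 alone, where the intensity was 10.9 in the control and 55.2 in the treated channel, whereas on replicate 1 it was 12.5 and 8.0. *Tbx19* and *Tbx21* were not well above background.

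Of 14 genes listed here as the ureteric mesenchyme program, 9 were called lower in limma and 0 higher, while 1.15% of all genes were called lower. The median was -0.77. The count of 9 became 2 with centring on the median and 0 in the dye-term model and with the deposited series table. The forkhead gene *Foxf1* fell by 1.57, the chondrogenic and smooth muscle regulator *Sox9* by 1.30 and *Tshz3*, a smooth muscle regulator of the ureter, by 1.12. The hedgehog targets *Gli1* and *Ptch1* fell by 1.16 and 1.03, and the inhibitors *Id2* and *Id4* fell by 0.88 and 0.78. *Tcf21* fell by 0.77 and the signal gene *Bmp4* by 0.73. *Gata6* had -0.41 (adjusted p = 0.185 in limma), and *Myocd*, *Aldh1a2*, *Dkk2* and *Shisa2* lay between -0.02 and 0.18. Most of these genes were chosen from the study of this pathway, so their common direction is not independent evidence.

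Targets that T-box factors are known to repress in other tissues were not called. Of 9 such genes 8 were tested, with 0 called in limma at FDR 0.05, against 1.76% of all genes. On both arrays 7 were higher, against 28.5% of all genes, and their median was 0.25. This was not particular to these targets. Higher on both arrays were also 8 of 8 endothelial, 8 of 8 macrophage and 7 of 8 neural markers. The same held for 6 of 8 red blood cell and 8 of 12 epithelial markers. The connexin gene *Gja5* had ratios of 0.34 and 0.76 (mean 0.55, adjusted p = 0.108 in limma). The cell cycle inhibitor gene *Cdkn2b* had 0.03 and 0.94 (mean 0.48, adjusted p = 0.382 in limma). *Cdkn2b* was dim, with 14.6 in the control and 15.0 in the treated channel on replicate 1, and 17.7 and 46.7 on replicate 2. On replicate 1 the ratios of *Cdkn1a* and *Nppa*, also counted as higher, were only 0.02 each. *Gja5*, which is also expressed in endothelium, and *Ndrg1* had an unadjusted p under 0.05 in limma. *Cdh1*, the epithelial cadherin gene, is also on this list and had a mean of 0.24. Among 10 known binding partners and corepressors of T-box proteins, 7 were tested. Of these 1 was called lower and 0 higher, against 1.15% and 0.611% of all genes. The corepressor gene *Tle4* fell by 0.85 (adjusted p = 0.0173 in limma), and *Pax3* had -0.30 without being called.

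**Figure D4:**
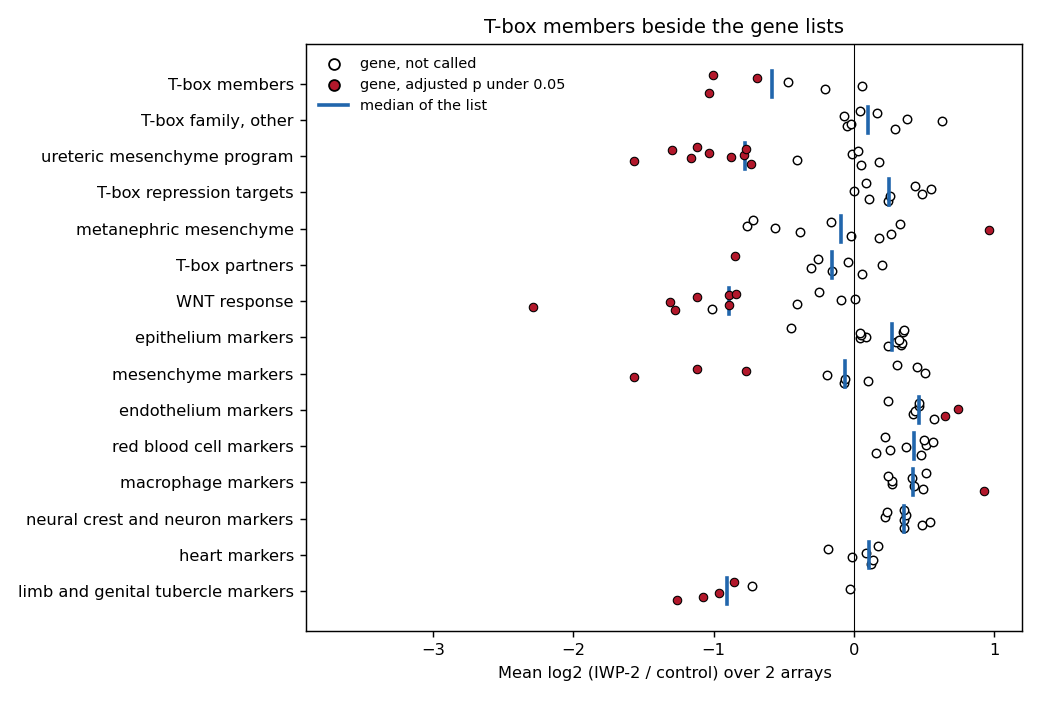
Mean log2 ratio of IWP-2 over control over both arrays for each tested gene of the T-box members and of the gene lists (1 row per list; red, adjusted p under 0.05 over all genes; white, not; blue bar, median of the list). The T-box members spread from -1.03 to 0.06, the ureteric mesenchyme program and the WNT response lie mostly to the left, and the other T-box genes lie around 0.

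Markers of other tissues that the explants could hold were read beside the members. The study's methods state that contaminating tissues were excluded by visual inspection. Where in the explant these marker genes are expressed was not measured. Since *Tbx4* and *Tbx5* are known from limb and genital buds, 6 markers of these tissues were listed. Of these 4 were called lower in limma and 0 higher, namely *Hoxa13* (-1.26), *Hoxd13* (-1.08), *Msx1* (-0.96) and *Prrx2* (-0.85), against 1.15% of all genes, and the median was -0.91. The count of 4 became 2 without the filter on dim probes, 1 with the deposited series table and 0 with centring on the median and in the dye-term model. The summed intensity of the 6 markers was 13720 in the control and 6107 in the treated channel on replicate 1, and 13267 and 7885 on replicate 2. All 6 were above background. *Hoxd13* made up most of this sum, with 8103 and 3179 on replicate 1 and 7801 and 4429 on replicate 2. *Prrx1* had -0.73 and *Pitx1*, which acts upstream of *Tbx4* in the hindlimb, had -0.03. The part of such tissue in the fall of *Tbx4* and *Tbx5* was not tested. The 8 heart markers, relevant to *Tbx5* and *Tbx20*, summed to intensities of only 128 to 141 in every channel. Of the 6 tested, 0 were called in limma, against 1.76% of all genes (also 0 at an unadjusted p under 0.05). Among the 6 were *Ryr2* (-0.19) and *Tnnt2* (0.17). The defining markers *Nkx2-5* and *Myl7* were not well above background.

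Kidney mesenchyme borders the domain of *Tbx18*, and its markers differed between the arrays. Their median was 0.25 on replicate 1 and -0.37 on replicate 2, and the summed intensity was 16797 in the control and 20271 in the treated channel on replicate 1, against 20534 and 15983 on replicate 2. *Six2*, which defines nephron progenitors, had 1.03 and -0.38, and *Sall1* had 0.29 and -1.81. Of the 10 genes, all tested, *Meox1* alone was called (0.96, adjusted p = 0.0286 in limma), and 0 were called lower. Of all genes 0.611% were called higher and 1.15% lower. On both arrays 3 of them had ratios below 0. *Osr1*, a gene of the intermediate mesoderm and early kidney mesenchyme, had -0.60 and -0.53 (adjusted p = 0.0503 in limma), *Gdnf*, the signal for ureteric bud outgrowth, had -0.41 and -0.37 (adjusted p = 0.135 in limma), and *Wt1* had -0.14 and -1.29 (adjusted p = 0.266 in limma). The part of such tissue in the fall of *Tbx18* was not tested.

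Of the general mesenchyme markers 3 of 10 were called lower and 0 higher, against 1.15% and 0.611% of all genes. All 3 were genes of the program above and already counted there (*Foxf1*, *Tshz3* and *Tcf21*). The median of the 10 was -0.07. On both arrays 5 of the 10 were lower and 4 were higher. *Pdgfrb* had 0.50, *Twist1* 0.45, *Vim* 0.31 and *Col1a2* 0.10, none of them called. *Pdgfra* had -0.19, *Col1a1* -0.07 and *Col3a1* -0.07, also not called. The summed intensity of the list was 117639 in the control and 106908 in the treated channel on replicate 1, and 96130 and 102286 on replicate 2. Lists of markers of other cells had medians above 0, which were 0.27 for 12 epithelial, 0.46 for 8 endothelial, 0.42 for 8 red blood cell, 0.42 for 8 macrophage and 0.36 for 8 neural genes. In limma *Kdr* (0.74), *Cldn5* (0.65) and the macrophage gene *Adgre1* (0.92) were called higher, against 0.611% of all genes. Called lower were 0 genes of these 5 lists, against 1.15% of all genes. Among the most changed of the others were *Wnt9b* (-0.45, against the direction of its list) and *Ret* (0.35) of the epithelium, *Hbb-bh1* (0.56) and *Hba-x* (0.51) of red blood cells, and *Mrc1* (0.51) of macrophages, none of them called. Their summed intensities were higher in the treated channel on both arrays, by a factor between 1.04 and 1.19 for epithelium, 1.38 and 1.60 for endothelium, 1.12 and 1.58 for red blood cells, 1.26 and 1.41 for macrophages and 1.27 and 1.43 for neural cells, and all of these markers were above background. The medians thus had the sign opposite to that of the 3 T-box genes that fell, and the part of these cells in that result was not tested.

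The genes whose ratios on the 2 arrays came closest to those of *Tbx18* were searched among 5105 genes of similar brightness. In order of distance they were *Dclk2* (-1.17 and -0.91), *1190002N15Rik* (-1.14 and -0.83), *Sphk1* (-1.14 and -0.83), *Tshz3* (-1.31 and -0.93) and *Dcn* (-1.002 and -0.95). *Dclk2* encodes a doublecortin-like kinase, *Sphk1* a sphingosine kinase and *Dcn* the matrix proteoglycan decorin. With 2 values per gene, this likeness is a description only.

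The order of the members by mean change was *Tbx18*, *Tbx5*, *Tbx4*, *Tbx3*, *Tbx2* and *Tbx20*. The intervals of *Tbx18* and *Tbx5* overlapped almost entirely, and neighbours further along this order also had overlapping intervals. The intervals of *Tbx18* and *Tbx3* did not overlap. The direction of all 6 was kept in each of the 13 alternative analyses, among which *Tbx5* varied most, from -1.52 to -1.005. Alternatives that changed only the prior, the model or the probe filter reused the same ratios, so they could not turn a sign.

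**Figure D5:**
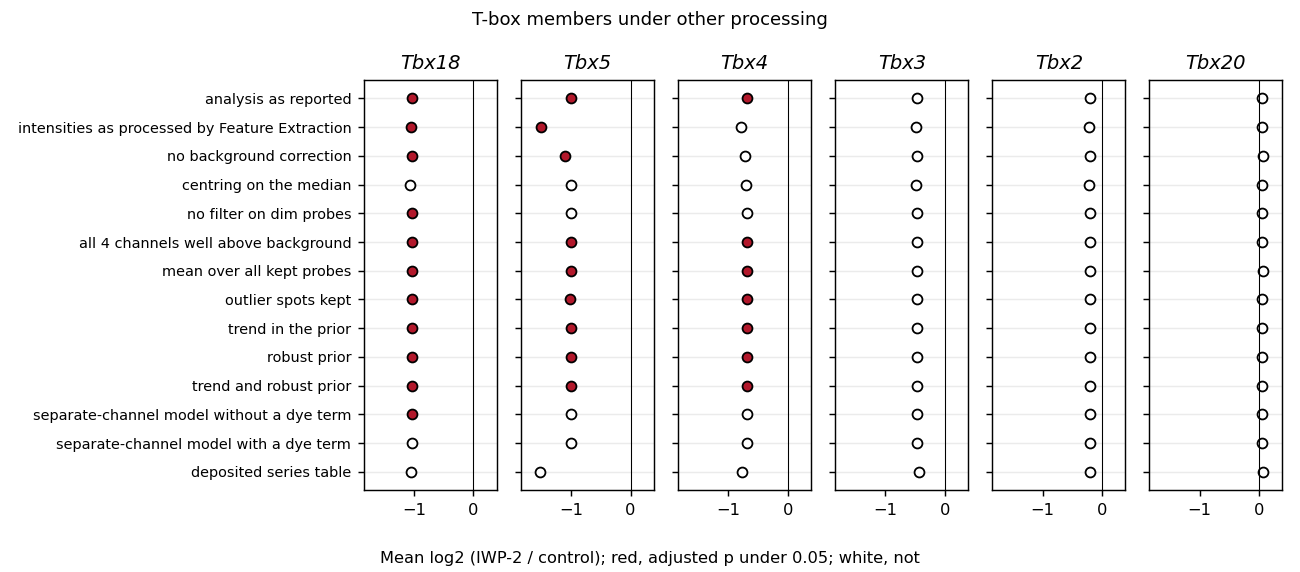
Mean log2 ratio of IWP-2 over control of the 6 tested T-box genes (panels) in the analysis as reported and in 13 alternative analyses (rows); red marks an adjusted p under 0.05 and white marks the rest. The positions hardly move along a column except for *Tbx5*, but rows that change only the prior, the model or the probe filter reuse the same ratios. The calls of *Tbx18*, *Tbx5* and *Tbx4* are red in 10, 8 and 6 of the 13 alternatives and those of *Tbx3*, *Tbx2* and *Tbx20* in 0.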

How the data were processed

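Two-colour Agilent arrays (2, dyes swapped) compared RNA of IWP-2-treated and control E11.5 ureters. Per the file headers, the deposited scanner output gives raw intensity and local background per spot, and an intensity that the authors' Feature Extraction software (12.2.0.7 in the headers, 10.7.3.1 in the submitters' processing notes) had background-corrected and dye-normalized. In R 4.3.3 with limma 3.58.1, spot means were corrected by normexp (offset 50) and log2 ratios normalized by loess within arrays; outlier spots were dropped and the 4 spots per probe averaged. Probes entered when, in at least one group, over a share of 0.5 of the spots exceeded background on both arrays. The brightest kept probe stood for a gene. Ratios were fitted with lmFit and eBayes (dye swap as sign; 1 residual degree of freedom), with Benjamini-Hochberg adjustment over 20119 genes. The number of arrays limits the precision. Intensities in the text are geometric means of processed intensities. An exact sign-flip test of 2 arrays cannot give a two-sided p under 0.5 and was not used.

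Per the study's methods, replicates were separate pools. The deposited series table holds signed fold values (a ratio scale, centring not stated) and served as an alternative. Its values had the sign of the scanner ratios for 98.6% and 99.8% of probes with a fold of at least 1.5, and its median was 1 on both arrays. Gene names were updated through RefSeq (15751 of the tested genes matched by symbol and 744 by an older name). Named genes were all members, per list the called genes or, with fewer than 2, the 2 most changed, the nearest neighbours and the 5 genes closest to *Tbx18*. Some genes that this rule gives are not reported here. Other list genes named (for example *Gata6*, *Prrx1*, *Pitx1*, *Osr1*, *Gdnf*, *Wt1*, *Pdgfrb*, *Six2*, *Nkx2-5* and *Myl7*) were chosen after their values were seen. The members and lists were chosen with earlier results of these data known. The procedure was tested on simulated data.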

Additional observations from a re-analysis of the deposited data

How the results depend on the processing

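In 13 alternative analyses with a test, the 6 tested T-box genes kept the sign of their mean. This could not differ where only the prior, the model or the probe filter changed, since the ratios were then the same. *Tbx15* entered 1 analysis, without a filter on dim probes, at 0.13 (adjusted p = 0.7504 in limma). Of the 3 genes called in limma at FDR 0.05, the count was 0 with centring on the median, in the separate-channel model with a dye term, with the deposited series table and at FDR 0.01, and 1 without a filter on dim probes and in the separate-channel model without a dye term. *Tbx18* was -1.07, -1.03 and -1.06, no longer called, with centring on the median, in the dye-term model and with the series table. *Tbx5* was not called with centring on the median (-1.01), without the filter and in both separate-channel models (-1.005 each) and with the series table (-1.52). *Tbx4* was not called with processed intensities (-0.79), without background correction (-0.72), with centring on the median (-0.71), without the filter and in both separate-channel models (-0.69 each) and with the series table (-0.76). The causes of these losses were not tested. At an unadjusted p under 0.05 in limma, 4 members were lower in the analysis as reported and 3 or 4 in each alternative. In the dye-term model limma called 0 of 20119 genes lower (882 at an unadjusted p under 0.05), with centring on the median 36 and 1322 with the series table, against 232. Of the ureteric mesenchyme program 9 genes were lower as reported, 3 without the filter, 2 with centring on the median and 0 in the dye-term model and with the series table. Of the limb and genital markers 4 were lower as reported, 2 without the filter, 0 with centring on the median and in the dye-term model and 1 with the series table. Each array alone gave -1.18 and -0.88 for *Tbx18*, -1.15 and -0.86 for *Tbx5* and -0.79 and -0.59 for *Tbx4*; *Tbx20* gave 0.12 and turned to -0.0020 on replicate 2. The intensity and fold filter passed 0 members, 2 with a fold of at least 1.5, 1 (*Tbx18*) with the fold as a mean over arrays and between 0 and 1 on single arrays. The count of called probes was 3 as reported, 3 with a trended and robust prior, and 2 with centring on the median and without the filter. The fit as reported is itself paired, since each ratio sets a treated pool against the control pool of its array. Dim signal limits *Tbx5*, *Tbx20* and *Tbx15*.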
